A study of Arabidopsis thaliana with 4 samples.

Results

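The comparison set shoot apices of the Arabidopsis mutant nse4a-2 against those of Col-0 wild type, both kept in control medium without drug. NSE4A (AT1G51130) encodes a kleisin, the protein that closes the ring of the SMC5/6 complex. SMC5/6 is an ATPase complex related to cohesin and condensin, which is known for its part in homologous recombination and in the repair of damaged DNA. In plants, damaged DNA is signalled by the kinases ATM and ATR to the transcription factor SOG1, which switches on repair genes and inhibitors of the cell cycle, and dividing apices are among the tissues where this pathway is best known.

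The deposit holds 4 groups of libraries, of which the comparison used WT_ctrl (wild type) and nse4a-2_ctrl (mutant). Its fold changes are between 4 libraries of 8 in all, 2 biological replicates on each side according to the table's headings, whereas the series lists 1 sample per group. All plants were Col-0, grew for 9 days on solid medium in long days, then spent 24 h in liquid medium, and their apices, freed of leaves, hypocotyl and roots, were frozen at the age of 10 days. The other 4 libraries, WT_zeb and nse4a-2_zeb, came from the same genotypes after 24 h in 20 µM zebularine, an analogue of cytidine that is built into DNA. The labels give neither the lesion of nse4a-2 nor the number of plants pooled. The p-values rest on the spread between replicate libraries in all 4 groups, and how independent the replicates are is not stated.

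Total counts in the control medium ran from 15360494 to 18102518 per library. The unit of all levels below is CPM, counts per 1000000 of the library's total multiplied by its TMM scaling factor. In that unit 3 reads corresponded to 0.165 to 0.192 CPM. Replicates correlated across genes at r = 0.986 in WT_ctrl and 0.98 in nse4a-2_ctrl, where genes are not independent replicates. On principal component 1 of the control libraries (62.3% of the variance) the wild-type libraries scored −45.6 and −29.5 and the mutant ones 28 and 47.1. Component 2 (22.1%) set the mutant libraries apart from each other, at −36 and 27.9. Of 32399 genes listed, 32356 had values and 19682 passed the filter on low counts and were tested.

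Far more genes were called higher in the mutant than lower, although 48.7% of all estimates were above 0. Log2 fold changes (mutant over wild type) are given ± SE. Each SE was worked back from edgeR's quasi-likelihood test, as the absolute log2 fold change over the square root of F. It is therefore no measure of precision separate from that test. A gene was called where the test gave an adjusted p below 0.05, the adjustment being that of Benjamini and Hochberg across the genes tested. By that rule 449 genes (2.28%) were higher in nse4a-2 and 168 (0.854%) lower, 617 (3.13%) in all. The median log2 fold change was 1.25 among the genes called higher, −0.94 among those called lower and −0.01 over all genes tested. All 8 libraries entered the fit, those in zebularine through the filter and the shared estimate of the spread. A fit of the 4 control libraries alone called 398 higher and 154 lower, of which 329 and 114 were among the calls above. Without WT_zeb replicate 1 the counts were 564 and 248, and without nse4a-2_zeb replicate 1 they were 370 and 110. They also depended on single control libraries, at 101 higher and 25 lower without WT_ctrl replicate 1, and 326 and 53 without WT_ctrl replicate 2. Without nse4a-2_ctrl replicate 1 it was 288 and 64, and without nse4a-2_ctrl replicate 2 it was 100 and 21.

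NSE4A itself was transcribed in the mutant. Its level was 10.7 and 9.22 CPM in the WT_ctrl libraries and 8.39 and 7.79 in the nse4a-2_ctrl libraries. Both mutant values lay below both wild-type ones, and the log2 fold change of −0.30 ± 0.17 did not pass (edgeR adjusted p = 0.407). Since the lesion is not given, the count over the gene does not check the genotype. NSE4B (AT3G20760), the second kleisin gene, had 0 reads in all 4 control libraries, which allows at most 0.192 CPM in a library.

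None of the 9 SMC5/6 genes tested was called by edgeR, none by DESeq2, and 1 had an unadjusted p below 0.05. That gene was NSE3 (AT1G34770), a MAGE-domain subunit, at 13.3 and 11.5 CPM in wild type and 8.97 and 7.73 in the mutant, a value of −0.58 ± 0.23 (edgeR adjusted p = 0.221). The ATPase subunit SMC5 stood at 0.31, its partners SMC6A and SMC6B at 0.17 and −0.00, the RING subunit NSE1 at 0.44 and the SUMO ligase HPY2 at −0.29. The subunit SNI1 stood at 0.40 and AT2G28130, annotated as an unknown protein, at 0.34. Of 16 cohesin and condensin genes none was called by either tool and 2 had an unadjusted p below 0.05. The kleisin SYN3 at −0.50 and the meiotic kleisin SYN1 at 0.62 had the largest estimates.

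Part of the genes that answer DNA damage were higher in the mutant. Of 22 damage-inducible genes tested, 7 rose and 0 fell, the median of the list was 0.50, and 18 estimates were above 0. Over all genes tested 2.28% rose and 48.7% of the estimates were above 0. The risers were 2 transcription factors related to SOG1, a cell-cycle inhibitor and 4 genes of repair and its supplies. The promoters of 3 of them hold the motif that SOG1 is known to bind, which is CTT, then 7 bases of any kind, then AAG. It is shown in capitals in these stretches, read 5′ to 3′ along the gene's own strand (RefSeq, build TAIR10.1).
NAC044, chr3:228990-229042, plus strand: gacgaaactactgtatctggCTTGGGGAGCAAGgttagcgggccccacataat
SMR7, chr3:10231578-10231630, minus strand: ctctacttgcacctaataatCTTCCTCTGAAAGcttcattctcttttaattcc
AT4G02390, chr4:1049650-1049702, plus strand: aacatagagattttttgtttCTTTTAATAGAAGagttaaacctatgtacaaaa
The window searched ran from 250 bases before to 50 after the start of each gene, and the motif reads the same on both strands. It was present in 3 of the 7 risers, in 4 of the 15 other members and in 11% of 19629 promoters of genes tested. Such a match is a description of the letters, not a binding site.

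NAC044 (AT3G01600), a NAC transcription factor close to SOG1, had 3.69 and 3.59 CPM in wild type and 14.8 and 21.2 in the mutant. The groups lay well apart, at a log2 fold change of 2.30 ± 0.19 (edgeR adjusted p = 0.000828). NAC085 (AT5G14490), a related NAC factor, had 1 and 2 reads in the wild-type libraries and 41 and 60 in the mutant ones. That is a ratio of 35.6, with a 95% exact counting interval of 11.9 to 176, and it was called at an edgeR adjusted p of 0.00156. SMR7 (AT3G27630), which blocks cyclin-dependent kinases and is induced by damage, had 0.606 and 0.448 CPM in wild type and 4.2 and 5.19 in the mutant. It rose by 3.13 ± 0.35 (edgeR adjusted p = 0.00314), the mutant libraries both above the wild-type ones.

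GMI1 (AT5G24280), an SMC hinge-domain protein named for its induction by gamma rays and mitomycin C, went from 9.52 and 14 CPM to 50.4 and 61. Both mutant libraries lay far above both wild-type libraries, and the log2 fold change was 2.25 ± 0.18 (edgeR adjusted p = 0.000691). RAD17 (AT5G66130), which loads the checkpoint clamp, rose from 7.54 and 9.35 to 19.3 and 18.9 CPM, by 1.18 ± 0.16 (edgeR adjusted p = 0.0054), a call lost without WT_ctrl replicate 1. The poly(ADP-ribose) polymerase AT4G02390 rose from 319 and 336 reads to 647 and 703, by 1.12 ± 0.12 (edgeR adjusted p = 0.00314). TSO2 (AT3G27060), a small subunit of ribonucleotide reductase, which makes DNA precursors, showed the smallest rise of the 7, 0.53 ± 0.11 (edgeR adjusted p = 0.0323), from 177 and 171 to 248 and 253 CPM, and was not called without any 1 of the control libraries.

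Other well-known damage genes did not pass. BRCA1, a repair ubiquitin ligase, stood at 0.51 (edgeR adjusted p = 0.0744) and XRI1, an X-ray-induced gene, at 0.73 (0.0785). CYCB1;1, a mitotic cyclin that damage induces, stood at 0.45 (0.106), and BARD1, the partner of BRCA1, at −0.23 (0.392). SMR5, the other damage-induced SMR inhibitor, had 0 reads in wild type and 2 and 1 in the mutant, under the filter, and was the 1 of 23 members not tested. Counts of risers in this list were 5, 6, 6 and 6 when each control library in turn was left out, and 8 by DESeq2.

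**Figure D1:**
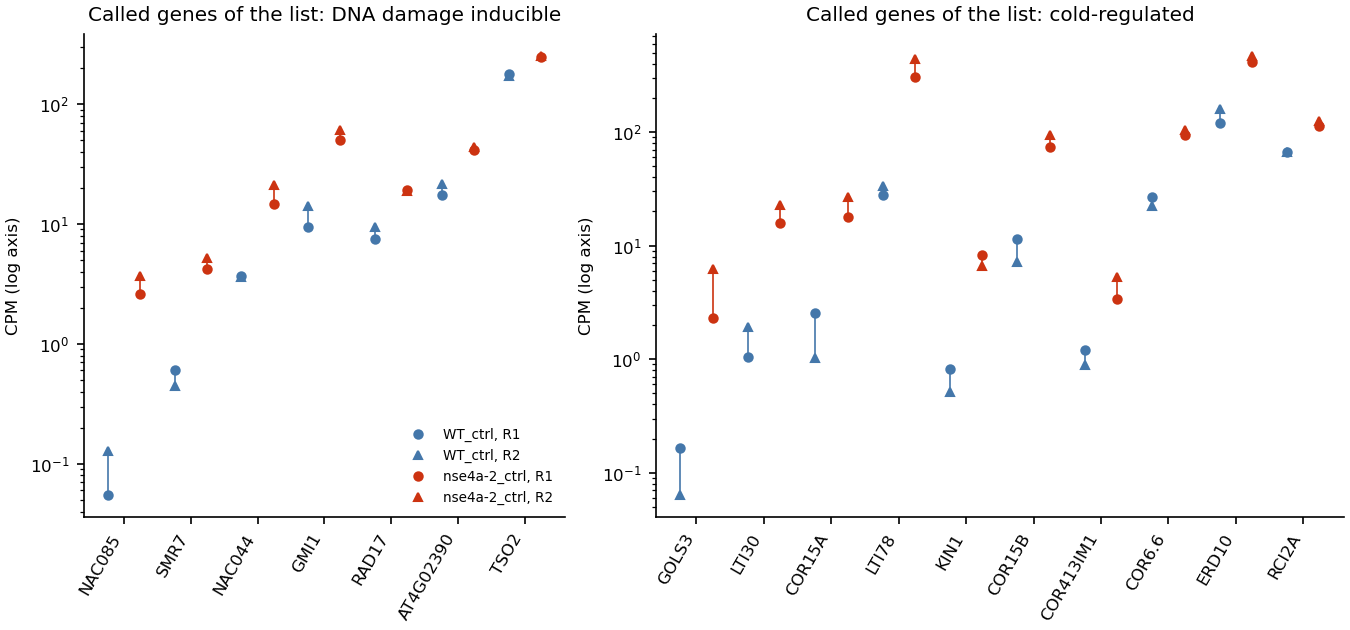
Levels in the 4 control-medium libraries of the called members of 2 gene lists, in CPM on a log axis. Circles are replicate 1 and triangles replicate 2, and a line joins the replicates of a group. The genes shown are those called higher, and both mutant libraries lay above both wild-type libraries in each, as they did in 24.6% of all genes tested.

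The machinery that senses and repairs damage differed little. Of 21 such genes 1 rose and 0 fell, with a median of −0.12 and 3 estimates above 0. The riser was COM1 (AT3G52115), annotated as gamma response gene 1, which acts on the ends of double-strand breaks. It went from 8.97 and 8.9 to 14.7 and 14.5 CPM, by 0.71 ± 0.14 (edgeR adjusted p = 0.0297), and the call was lost without any 1 of the 4 control libraries.

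Few genes of the dividing cell were called, but most estimates lay below 0. Of 20 genes of G2 and mitosis edgeR and DESeq2 called 0, with 3 at an unadjusted p below 0.05, but 19 estimates were below 0 and the median was −0.22. The B-type cyclins CYCB1;3 and CYCB2;1 had the largest estimates, −0.47 (edgeR adjusted p = 0.136) and −0.40 (0.379). In S phase 1 of 22 genes rose and 0 fell, and the riser was TSO2, described above. The median was −0.22, with 4 estimates above 0 and 8 genes at an unadjusted p below 0.05. Among 15 inhibitors of cyclin-dependent kinases SMR7 was the 1 called, and the median of that list was −0.11. In bulk tissue such values cannot tell fewer cells of a type from less RNA per cell.

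Histone genes gave 1 rise and 1 fall of 13 H3.1 and H4 genes, whose copies are near-identical, so that single values are uncertain. The H4 gene AT1G07660 went from 77.5 and 83.1 to 31.3 and 22.3 CPM, by −1.59 ± 0.17 (edgeR adjusted p = 0.00288). AT3G53730, another H4 gene, went from 146 and 140 to 237 and 197 CPM, by 0.60 ± 0.13 (edgeR adjusted p = 0.0437), and lost its call without any 1 of the 4 control libraries. The summed level of the 13 genes was 1799 and 1820 CPM in wild type and 1930 and 1618 in the mutant, so the groups overlapped.

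The list with the most risers was that of cold-regulated genes. They encode dehydrins and other small hydrophilic proteins that protect membranes and proteins in cold or dry cells, and enzymes of raffinose-type sugars. Of 20 tested 10 rose and 0 fell, 19 estimates were above 0 and the median was 1.69. A pair of motifs belongs to this group, CCGAC, the core of the DRE that CBF factors bind, and ACGTG, the core of the ABRE of abscisic acid signalling. They are shown in capitals, on either strand, in the promoters of genes with large rises (RefSeq, build TAIR10.1, along the gene's own strand).
LTI78, chr5:21240557-21240708, plus strand: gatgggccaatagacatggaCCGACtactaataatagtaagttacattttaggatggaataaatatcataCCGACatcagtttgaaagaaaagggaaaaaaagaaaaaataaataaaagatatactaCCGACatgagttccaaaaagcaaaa
COR15A, chr2:17712333-17712492, minus strand: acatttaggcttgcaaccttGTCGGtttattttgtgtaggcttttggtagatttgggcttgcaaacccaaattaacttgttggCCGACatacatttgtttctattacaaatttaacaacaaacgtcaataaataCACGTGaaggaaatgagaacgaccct
LTI30, chr3:18940522-18940642, plus strand: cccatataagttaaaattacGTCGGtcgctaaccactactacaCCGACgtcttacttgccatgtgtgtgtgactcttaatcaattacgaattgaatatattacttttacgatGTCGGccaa
The DRE core was present in 5 of the 10 risers, 2 of the 10 other members and 16.3% of all promoters of genes tested, and in 19.9% of those of the genes called higher. The ABRE core was present in 6 of the 10 risers and 3 of the others, in 27.4% of all promoters and in 36.2% of those of the genes called higher. CACGTG holds the ABRE core on both strands.

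LTI78 (AT5G52310), a hydrophilic protein induced by cold, drought and salt, went from 28.1 and 33.6 to 308 and 440 CPM, by 3.60 ± 0.44 (edgeR adjusted p = 0.00441). The chloroplast protein gene COR15A (AT2G42540) went from 2.53 and 1.02 to 17.7 and 26.7 CPM, by 3.60 ± 0.39 (edgeR adjusted p = 0.00304). The dehydrin gene LTI30 (AT3G50970) went from 1.05 and 1.92 to 15.7 and 22.7 CPM, by 3.71 ± 0.46 (edgeR adjusted p = 0.0045). In each of these 3 genes every mutant library was several times above every wild-type one.

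KIN1 (AT5G15960) rose from 0.826 and 0.512 to 8.33 and 6.68 CPM, by 3.45 ± 0.27 (edgeR adjusted p = 0.000691). Its neighbour COR6.6 (AT5G15970) rose from 26.7 and 22.4 to 93.9 and 105 CPM, by 2.01 ± 0.24. The pair are known as close copies, so how reads were shared between them is uncertain, and a stretch of their promoters is shown for comparison.
KIN1, chr5:5209547-5209591, plus strand: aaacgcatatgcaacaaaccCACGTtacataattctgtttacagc
COR6.6, chr5:5211507-5211551, plus strand: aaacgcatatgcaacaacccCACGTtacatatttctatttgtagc
GOLS3 (AT1G09350), a galactinol synthase, had 3 and 1 reads in wild type and 36 and 100 in the mutant, with a log2 fold change of 5.08 ± 0.84 (edgeR adjusted p = 0.0152). The mutant libraries were unequal, and the call was lost without either wild-type library or without nse4a-2_ctrl replicate 2. The other risers, named because they were called, were COR15B at 3.16, COR413IM1 at 2.02, the dehydrin ERD10 at 1.68 and the membrane peptide RCI2A at 0.83. COR413IM1 was lost without nse4a-2_ctrl replicate 2 and RCI2A without WT_ctrl replicate 1. When each control library in turn was left out, 8, 12, 10 and 8 members of the list were called higher.

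The factors that drive these genes were less clear. CBF1 stood at 1.01 (edgeR adjusted p = 0.104), CBF2 at 0.72 (0.414) and CBF3 at 1.74 (0.17). CBF2 had 10.9 and 33 CPM in wild type against 42.9 and 29.2 in the mutant, so that the groups overlapped. COR27 at 1.56 and AT4G33980 at 1.70, 2 members of the list that also follow the clock, did not pass either. Of 15 abscisic acid and dehydration genes 1 rose and 0 fell, with a median of 0.30. It was ABI5 (AT2G36270), a bZIP factor of abscisic acid signalling, from 8.04 and 8.97 to 13.8 and 16.9 CPM, by 0.85 ± 0.19 (edgeR adjusted p = 0.0491), and without any 1 of the control libraries it was not called.

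Salicylic acid and jasmonate genes had positive medians but few calls by edgeR. DESeq2 called 5 of the 23 salicylic acid genes and 1 of the 18 jasmonate genes higher. Of 23 salicylic acid genes 2 rose and 0 fell, with a median of 0.59, and 15 of these promoters held the W box core TTGAC that WRKY factors bind, against 50.5% of all promoters. PR1 (AT2G14610), a secreted defence protein, went from 0.495 and 1.79 to 4.96 and 8.66 CPM, by 2.60 ± 0.54 (edgeR adjusted p = 0.033). PNP-A (AT2G18660), a small secreted peptide, had 2 reads in the wild-type libraries together and 22 in the mutant ones (edgeR adjusted p = 0.0478), a ratio of 11.6 with an exact counting interval of 2.86 to 102. The synthesis gene ICS1 stood at −0.24 and the regulator PAD4 at 1.35 (edgeR adjusted p = 0.0556). Without 3 of the 4 control libraries in turn 0 members were called, and without WT_ctrl replicate 2 there were 3.

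Of 18 jasmonate genes 1 rose and 0 fell, with a median of 0.77 and 16 estimates above 0. The repressor JAZ9 (AT1G70700) went from 15 and 19.5 to 46.4 and 47.4 CPM, by 1.44 ± 0.30 (edgeR adjusted p = 0.0351). Both mutant libraries were above both wild-type ones, but without any 1 of the control libraries JAZ9 was not called. Type-A cytokinin response regulators gave 0 calls of 9 by edgeR and DESeq2, with 1 at an unadjusted p below 0.05, a median of −0.29 and 0 estimates above 0. ARR9 stood at −0.68 and ARR7 at −0.63.

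Genes of mitochondrial and oxidative stress were among the risers. Of 9 genes in the oxidative and xenobiotic list 3 rose and 0 fell, with a median of 0.84. NAC013 (AT1G32870), a transcription factor that carries signals from mitochondria, went from 7.82 and 7.56 to 12.2 and 14.4 CPM, by 0.79 ± 0.15 (edgeR adjusted p = 0.0254). The glutathione transferase GSTU24 rose by 1.41 ± 0.29, from 0.771 and 1.02 to 2.35 and 2.41 CPM. AT2G21640, annotated as an unknown protein, rose by 1.06 ± 0.21, from 7.82 and 8.64 to 19.2 and 15.1 CPM. All 3 had both mutant libraries above both wild-type ones, but the list had 0, 1, 2 and 0 calls when each control library in turn was left out. Genes for alternative oxidases and external NAD(P)H dehydrogenases, which let electrons bypass the proton-pumping steps of respiration, were looked up after the values were seen. Of 10 tested 3 rose and 0 fell, with a median of only 0.13. Their summed level was 156 and 156 CPM in wild type and 173 and 184 in the mutant. The risers were AOX1C by 3.44 ± 0.48, NDB4 by 3.44 ± 0.51 and NDB2 by 1.07 ± 0.17. All 3 were lost without nse4a-2_ctrl replicate 2, NDB4 and NDB2 also without WT_ctrl replicate 1, and NDB2 without WT_ctrl replicate 2.

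In the low-oxygen list members moved both ways, 2 rising and 1 falling of 12, with a median of 0.47. ADH1 (AT1G77120), alcohol dehydrogenase, went from 20.9 and 20.7 to 88.4 and 77.5 CPM, by 1.99 ± 0.17 (edgeR adjusted p = 0.000828). SUS1 (AT5G20830), a sucrose synthase, went from 8.31 and 10.5 to 25.2 and 29 CPM, by 1.53 ± 0.15 (edgeR adjusted p = 0.00148). Both genes were called without any 1 of the control libraries. LBD41 (AT3G02550), a LOB-domain factor strongly induced by low oxygen, went the other way, from 40.9 and 121 to 13.4 and 5.26 CPM, by −3.12 ± 0.63 (edgeR adjusted p = 0.0304). Its wild-type libraries were unequal, and of the fits without 1 control library it was called only in that without WT_ctrl replicate 1. The repressor HRA1 at −2.28 (edgeR adjusted p = 0.0522) and AT5G15120 at −1.05 (0.0854) had estimates of the same sign as LBD41.

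Some clock genes were called, 4 of 11 in the dawn list and 1 of 13 in the evening list, but the hour of harvest is not given for any library, so genotype and harvest hour cannot be told apart for them. Of 11 dawn and day genes 2 rose and 2 fell, with a median of −0.36. CCA1 (AT2G46830), a dawn MYB repressor, went from 15 and 16.7 to 27.7 and 21.7 CPM, by 0.64 ± 0.14 (edgeR adjusted p = 0.0385). RVE1 (AT5G17300), a related factor, went from 4.73 and 8.52 to 20.4 and 17.7 CPM, by 1.53 ± 0.31 (edgeR adjusted p = 0.0323). The partner genes LNK2 and LNK1 fell by 1.36 and 0.73 on the log2 scale, and LNK2 went from 1143 and 1098 reads to 541 and 281. CCA1 was called only without nse4a-2_ctrl replicate 2, RVE1 only without WT_ctrl replicate 2, LNK2 only without nse4a-2_ctrl replicate 1, and LNK1 in none of these 4 fits. LHY, the close partner of CCA1, stood at −0.44 (edgeR adjusted p = 0.226).

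Of 13 evening genes 0 rose and 1 fell, although 10 estimates were above 0 and the median was 0.63. PRR3 (AT5G60100), a pseudo-response regulator, went from 43.1 and 29.6 to 17.1 and 17.1 CPM, by −1.09 ± 0.23 (edgeR adjusted p = 0.0371). ELF4 stood at 1.57 (edgeR adjusted p = 0.0594), TOC1 at 0.63 (0.135) and the RNA-binding protein GRP7 at 0.70 (0.295). The evening element AAATATCT was present in 10 of these 13 promoters and in 5.93% of all. All 10 holders were uncalled genes, and the element was present neither in the promoter of PRR3 nor in those of the 4 dawn genes called. Without single control libraries the dawn list had 0 to 2 genes higher and 0 or 1 lower, and PRR3 was called only without WT_ctrl replicate 2.

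A minority of light-harvesting and photosystem genes were called lower in the mutant. Of 9 leaf photosynthesis markers 0 rose and 2 fell, with a median of −0.10. LHCB2.1 (AT2G05100) went from 157 and 153 to 89.2 and 65.2 CPM, by −1.01 ± 0.16 (edgeR adjusted p = 0.0131), and LHCB1.1 (AT1G29920) from 1988 and 1803 to 1182 and 757, by −0.97 ± 0.20 (0.0357). Both have close copies. Both were lost without WT_ctrl replicate 1 and without nse4a-2_ctrl replicate 2, and LHCB1.1 also without WT_ctrl replicate 2. The wider set of genes annotated to photosystems or light harvesting was looked up after the values were seen. Of its 58 tested genes 10 fell and 0 rose, against 0.854% and 2.28% of all genes tested, and the median was −0.19. Its largest fall was that of LHCB2.3, from 61.1 and 69.1 to 27.7 and 16 CPM, by −1.58 ± 0.22. Summed over the whole set the level was 31852 and 27015 CPM in wild type and 22952 and 23849 in the mutant. The summed level of the 9 leaf markers, 11123 and 9187 CPM against 8299 and 9375, overlapped. Without single control libraries the wider set had 1, 5, 5 and 1 genes lower.

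Markers of other cell types in the apex did not give calls. The counts were 0 of 5 root, 0 of 8 stomatal, 0 of 6 vascular, 0 of 3 trichome and 0 of 3 meristem markers by edgeR and by DESeq2, with 0, 1, 1, 1 and 1 at an unadjusted p below 0.05. The meristem gene STM (AT1G62360), which marks the labelled tissue, was read at 17.3 and 20.3 CPM in wild type and 21.3 and 19.4 in the mutant. Summed root markers were at 9.85 and 6.6 against 6.93 and 6.55 CPM, and the root gene WOX5 was read at 2.92 and 2.05 against 3.05 and 2.29. The 3 root markers EXPA7, RHD6 and PLT1 were under the filter, and neither group was free of root marker reads. Among 16 meristem and boundary genes 1 rose, the homeobox gene KNAT6 (AT1G23380), by 0.83 ± 0.16 (edgeR adjusted p = 0.0263), from 7.87 and 7.49 to 12.5 and 14.7 CPM. Of 11 flavonoid genes the biosynthetic gene F3H and the regulator TT8 rose, by 0.83 ± 0.14 and 0.80 ± 0.17. KNAT6 and F3H were called only without nse4a-2_ctrl replicate 1, and TT8 in none of the fits without 1 control library.

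Several further lists held no call by edgeR. For 24 genes of DNA methylation and silencing 7 had an unadjusted p below 0.05, and DESeq2 called 1 higher and 1 lower. The methyltransferase DRM1 stood at 2.50 (edgeR adjusted p = 0.0968) and the histone methyltransferase SUVH5 at −0.80 (0.0938). Of the reporters of methylation QQS stood at 2.03 (0.112) and SDC at −0.93 (0.601), and neither was called by DESeq2. Heat genes gave 4 of 8 at an unadjusted p below 0.05 and 0 by DESeq2, the unfolded protein response 2 of 7 and 1, and flowering genes 2 of 13 and 0. Among 8 housekeeping genes the polyubiquitin gene UBQ10 rose by 0.93 ± 0.21 (edgeR adjusted p = 0.047), from 646 and 745 to 1185 and 1466 CPM, and was not called without any 1 of the control libraries.

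Of 2440 genes annotated as transposons 112 were tested, and 5 rose and 6 fell, with a median of −0.17. Over all genes tested 2.28% rose and 0.854% fell. Of the 112, 35 had an unadjusted p below 0.05. The copia-like gene AT3G28160 rose from 10.3 and 9.22 to 32.4 and 39.2 CPM, by 1.87 ± 0.15 (edgeR adjusted p = 0.000691). The gypsy-like gene AT1G20390 rose from 15.4 and 18.1 to 34.8 and 33.5 CPM, by 1.03 ± 0.15 (edgeR adjusted p = 0.00775), a call lost without WT_ctrl replicate 1 or nse4a-2_ctrl replicate 2. A LINE-type gene, AT2G01550, had 56 and 51 reads in wild type and 0 in both mutant libraries, at least 33.7-fold lower against a floor of 3 reads over the group. All other transposon genes were under the filter, and the counts do not cover them.

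**Figure D2:**
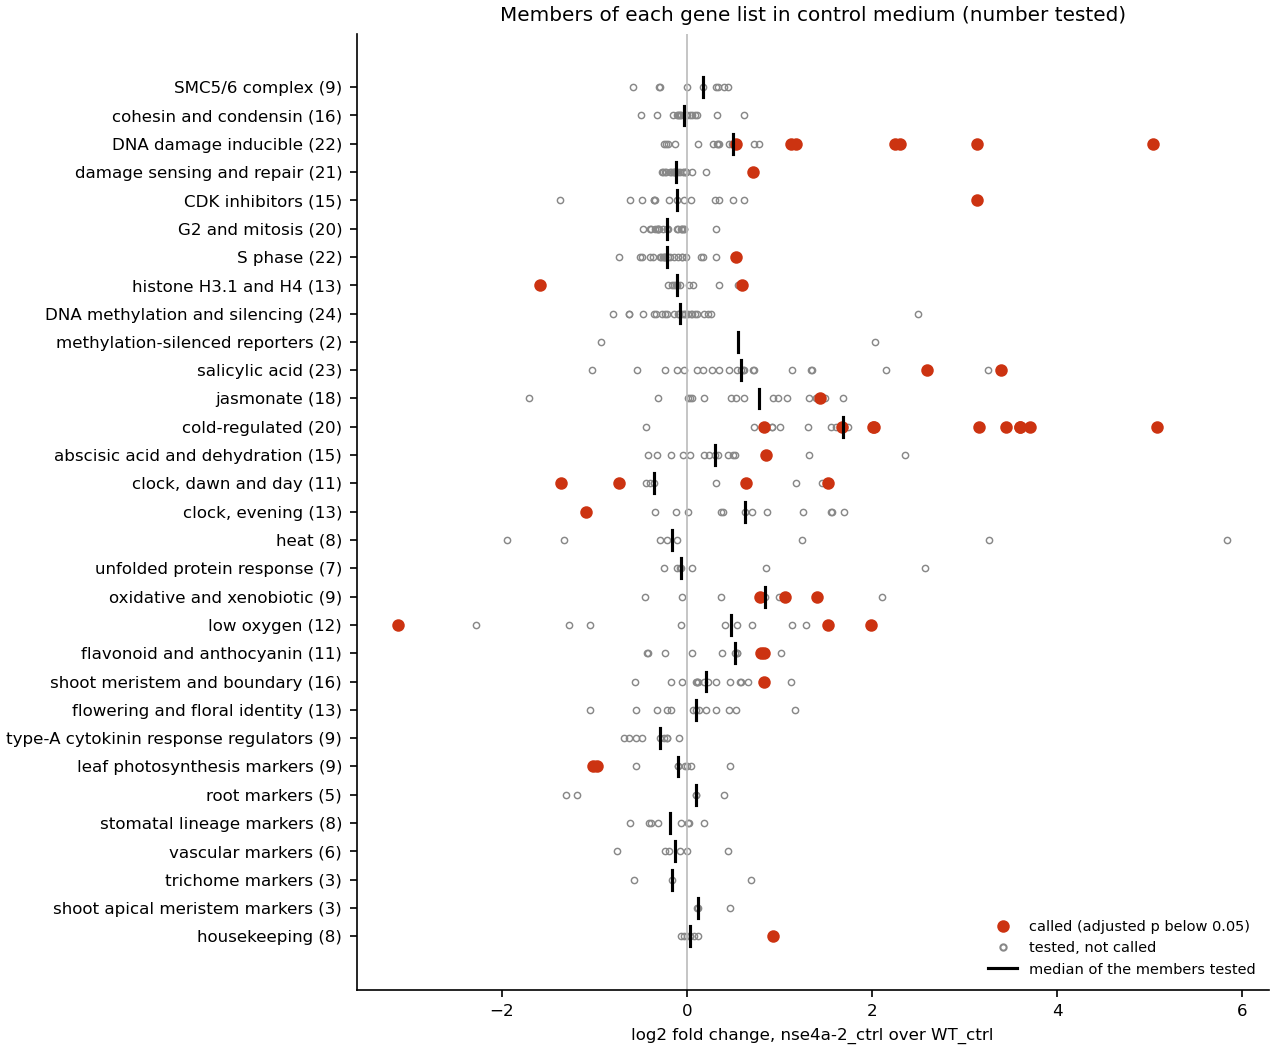
Log2 fold change of nse4a-2_ctrl over WT_ctrl for each tested member of the gene lists, with the number tested in brackets. Filled points are genes called at an adjusted p below 0.05, open points are genes not called, and black bars are list medians, which reach 1.69 in the cold-regulated list and 0.50 in the damage-inducible list.

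Some genes were read in practically 1 genotype. The neighbour of NSE4A in locus order, AT1G51120, an AP2/B3-type factor, had 0 reads in both wild-type libraries and 36 and 41 in the mutant ones, at least 27.2-fold higher (edgeR adjusted p = 0.00426). The next locus on the other side, FBH3, stood at −0.38 and was not called, and of the 11 genes tested among the 8 loci to each side AT1G51120 and the metal-binding protein AT1G51090 (2.52 ± 0.49, edgeR adjusted p = 0.0257) were called, the second of them in none of the fits without 1 control library. MRD1 (AT1G53480) had 1004 and 738 reads in wild type and 1 and 0 in the mutant, a ratio of 1645 with an exact counting interval of 295 to 65027, and it had the smallest p of all genes tested (edgeR adjusted p = 0.000218). AT3G28320, a protein with a DUF677 domain, had 158 and 206 reads against 0 and 0, at least 115-fold lower in the mutant. AT1G27570, a lipid kinase family gene, and AT1G20590, a cyclin family gene, had 98 and 64 wild-type reads in all against 0.

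Other losses were seen in HISN6B, a gene of histidine synthesis, with 26 reads against 0 (at least 8.19-fold lower), the aldehyde oxidase AO4 with 104 against 3 (ratio 32.7, exact counting interval 10.9 to 161), and the histone deacetylase gene hda17 with 59 against 2 (ratio 27.9, interval 7.38 to 235). In the other direction DRP4C and SK9 had 0 wild-type reads and 11 and 12 in the mutant, at least 3.88-fold and 4.23-fold higher. These reads in control medium are few, and the mutant libraries in zebularine held 145 and 279 reads. Other genes with 0 reads against 12 or 13 in control medium, NAC004 and AT2G18370, had few reads in zebularine and were not tested, so DRP4C and SK9 reached the test through the drug group. AT3G28320 was lost without nse4a-2_ctrl replicate 2, AT1G20590 without either mutant library, and hda17 without these or WT_ctrl replicate 1. HISN6B, DRP4C and SK9 were each lost without any 1 of the control libraries. AT3G01345, annotated only as an expressed protein, fell from 22.7 and 44.8 to 0.127 and 0.247 CPM, by 7.43 ± 0.75 on the log2 scale (edgeR adjusted p = 0.00211). Both mutant libraries lay below both wild-type ones in 24.8% of all genes tested, and the genes of this paragraph and the last were chosen for few or 0 reads on 1 side or for their size of change.

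**Figure D3:**
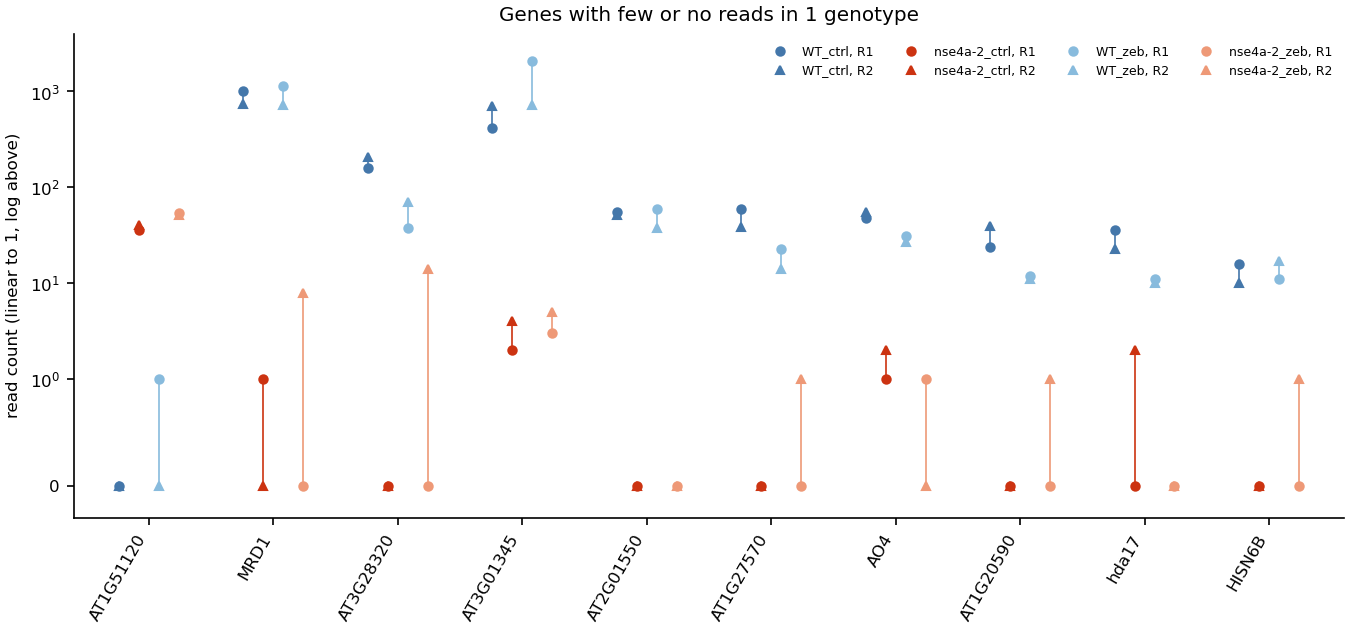
Read counts in all 8 libraries of 10 genes with few or no reads in 1 genotype in control medium, on an axis that is linear to 1 and logarithmic above. Circles are replicate 1 and triangles replicate 2. These 10 called genes keep their order between the genotypes in zebularine, although AT3G28320 reached 14 reads in 1 mutant library there. Not every gene with few reads on 1 side did so. AT1G58684, which was not called, had 0 reads in WT_ctrl and 245 in nse4a-2_ctrl, but 977 in WT_zeb and 239 in nse4a-2_zeb.

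The largest rises held further genes of no settled role. AT4G22960 (DUF544) went from 0.275 and 0.448 to 7.82 and 7.17 CPM, by 4.37 ± 0.26, and the RING finger gene AT5G60250 from 1.1 and 2.5 to 26.5 and 33.6 CPM, by 4.09 ± 0.27 (edgeR adjusted p = 0.000218 and 0.000342). SRO3 (AT1G70440), of a family related to poly(ADP-ribose) polymerases, rose by 4.10 ± 0.46. The neighbouring ATPase genes AT4G05380 and AT4G05370 had 2 reads each in wild type, against 61 and 35 in the mutant. The ratios were 32.3, with an exact counting interval of 8.56 to 273, and 18.5, with an interval of 4.76 to 159, and AT4G05370 was called only with all control libraries or without WT_ctrl replicate 2. AT3G58270 rose by 2.60 ± 0.19 and the ATPase gene AT2G18193 by 3.18 ± 0.23. Of the 62 calls taken by the rule for named genes, which is given below, 26 were called without any 1 of the 4 control libraries. Among them were NAC044, NAC085, SMR7, GMI1, LTI78, COR15A, LTI30, KIN1, ADH1, SUS1, MRD1 and AT1G51120. All 62 were called by DESeq2 as well.

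The same genotypes were compared in zebularine on other libraries, although both contrasts came from 1 fit and shared its filter and its estimate of the spread. There 2541 genes (12.9%) were higher in nse4a-2 and 1789 (9.09%) lower. Of the 449 genes higher in control medium 420 (93.5%) had an estimate above 0 in zebularine, where 48% of all genes tested did, and 341 were called higher. Of the 168 lower, 157 (93.5%) had an estimate below 0, against 52% of all genes, and 112 were called lower. With each medium fitted apart on its own 4 libraries, 373 of the 398 genes called higher in control medium (93.7%) had an estimate above 0 in zebularine and 295 were called higher there. Of the 150 called lower and also tested there, 143 (95.3%) had an estimate below 0 and 82 were called lower. The genes called in both media were 13.4% of those higher and 6.26% of those lower in zebularine. The 7 damage-inducible risers were all called higher in zebularine, with GMI1 at 2.44 and NAC044 at 1.83 there, and the 10 cold-regulated risers were too, with LTI78 at 4.50 and COR15A at 5.45.

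For 152 genes (0.772%) the genotype effect itself differed between the media by edgeR's quasi-likelihood test of the difference, and 37 of these were among the 617 called in control medium. Of the 617, 40 had estimates of opposite sign in zebularine, among them genes of light and the clock, which are named here after their values were seen. Of these, 5 were called higher in the mutant in control medium and lower in zebularine, and 2 the other way round. The remaining opposite estimates did not pass in zebularine. UNE10, a bHLH factor, had 3.25 and 3.39 CPM in wild type and 11.2 and 14.5 in the mutant in control medium, and 12.4 and 9.63 against 9.27 and 9.74 in zebularine. Its estimate in zebularine, −0.22, did not pass (edgeR adjusted p = 0.459). GLK2, a regulator of chloroplast genes, had 54.9 and 64.4 against 96.5 and 93 CPM, and 80.9 and 95 against 56.1 and 55.8 in zebularine. LHCB1.1, at 3004 and 3423 against 3667 and 3447 CPM, was not called in zebularine, and its difference between the media was not called either (edgeR adjusted p = 0.108).

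**Figure D4:**
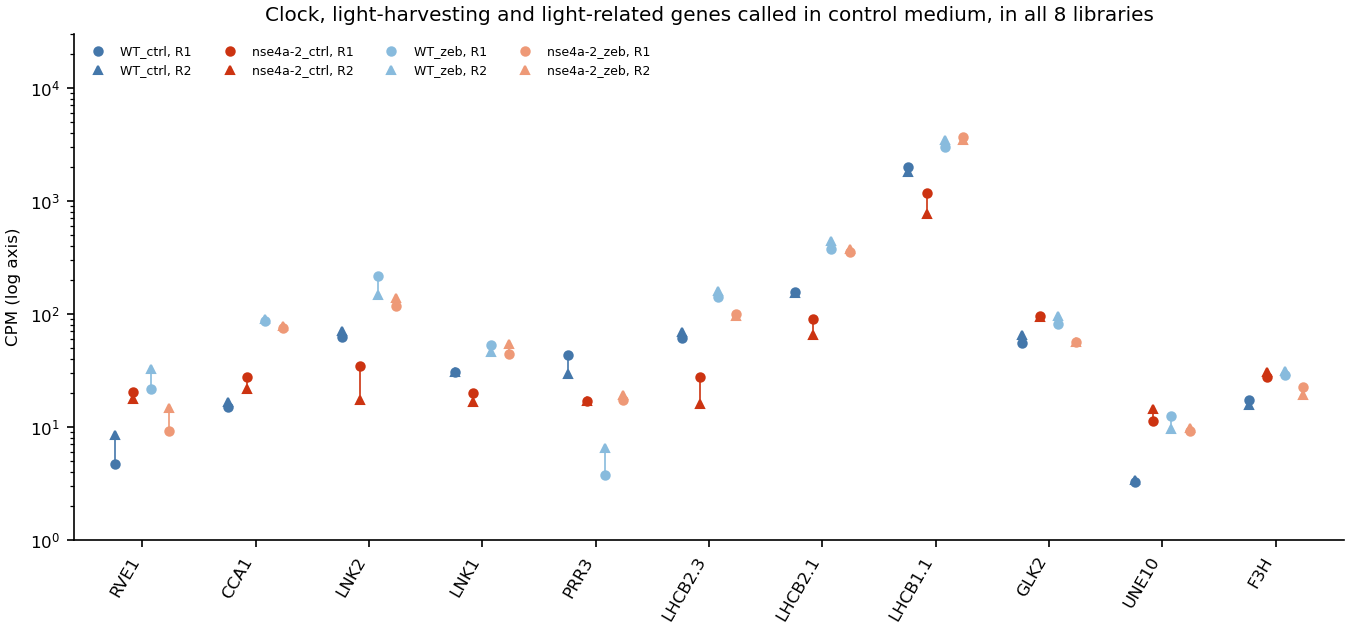
Levels in all 8 libraries of 11 clock, light-harvesting and light-related genes called in control medium, in CPM on a log axis. Circles are replicate 1 and triangles replicate 2. PRR3 was lower in the mutant in control medium and higher in zebularine, and UNE10 stood apart in WT_ctrl, at 3.25 and 3.39 CPM.

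**Figure D5:**
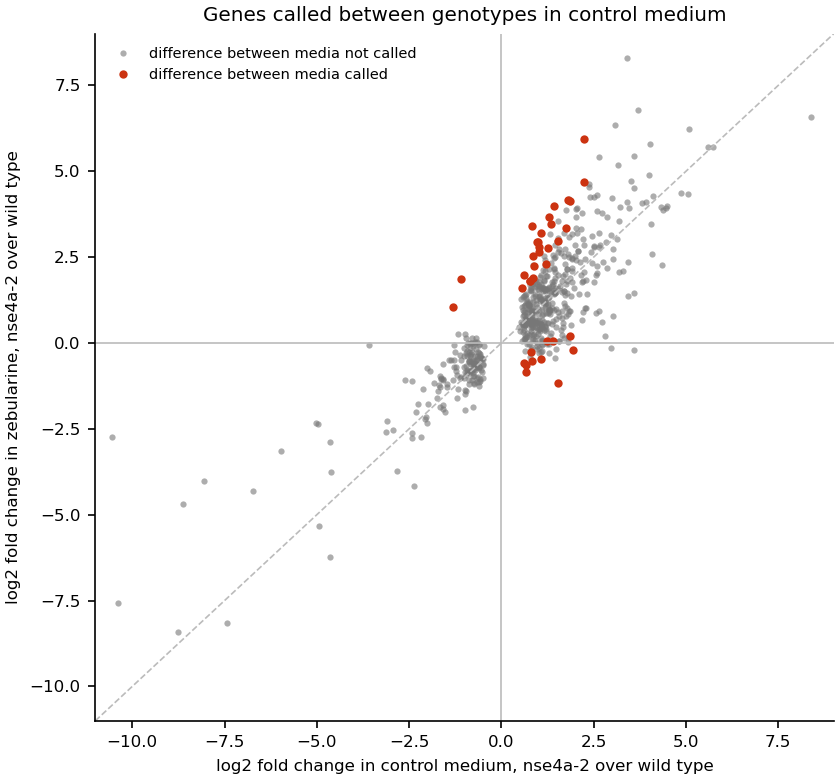
Genotype effect in zebularine against that in control medium for the 617 genes called in control medium, as log2 fold changes of nse4a-2 over wild type. Red points mark the 37 genes whose effect differed between the media, the dashed line marks equal effects, and fitted values of genes with 0 reads depend on the model and are no bounds.

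The authors' deposited table called 930 genes (2.87%) higher and 332 (1.03%) lower in the mutant. Of the edgeR calls, 400 of the 449 higher and 134 of the 168 lower were also called in the authors' deposited table, which is 43% and 40.4% of its calls. The 2-fold size rule on the authors' mean FPKM + 1, with no overlap in CPM between the groups' libraries and a mean FPKM of at least 1 in either group, gave 467 genes (2.49%) higher and 155 (0.827%) lower. MRD1, NAC085 and GOLS3 were not called in the authors' deposited table, at adjusted p of 0.474, 0.306 and 0.212.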

How the data were processed

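RNA-seq was made from poly(A) RNA of dissected shoot apices, as 100-base single-end reads. The authors deposited 1 table whose raw read counts per gene are given for 8 libraries, per the file headers. The same table holds FPKM values, group means of length-normalised counts, as deposited by the authors. It also holds the authors' log2 fold changes and adjusted p-values for each comparison, per the file headers. TopHat2, Cuffdiff and build TAIR10 are named in the submitters' processing notes, without versions. Strand use in counting is not given in the sources used here, so reads of a gene and an overlapping or antisense gene cannot be told apart. 12 further columns of per-sample values were not used.

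Counts were analysed with edgeR 4.0.16 in R 4.3.3. Genes passing filterByExpr were scaled by TMM, fitted over all 4 groups with quasi-likelihood F tests, and adjusted by Benjamini-Hochberg. CPM are per library total multiplied by its TMM factor. DESeq2 1.42.0, other scalings and filters, a replicate block and fits without each library were the alternatives. Depth was 15360494 to 18102518 counts in the control libraries, and intervals and the floor of 3 counts cover counting error only. On simulated counts for 19451 genes of this comparison, 76% of 2-fold and 96% of 4-fold changes were recovered, with 5 false calls of 177. The changed genes were drawn only from those with higher read counts, and each gene was given the spread of the fitted trend. These shares therefore do not cover genes with few reads, or genes or libraries with a larger spread of their own.

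The genes and lists were chosen with earlier results of these data known. The rule for named genes took the SMC5/6 subunits, up to 5 called members of each list by size, the 2 largest estimates where a list had no call, the 12 largest rises and falls with a mean of at least 1 CPM in either group, the 5 smallest p-values, and called genes with 0 reads in 1 group. Further called members, uncalled members and other genes of the lists were named after their values were seen. Whether replicate numbers pair the libraries across groups is not stated. Deviations of same-numbered libraries correlated at −0.086 to 0.234, which does not settle it, and the main fit used no pairing. Promoters came from RefSeq build TAIR10.1.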

Additional observations from a re-analysis of the deposited data

Results flagged for a closer look

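In 11 genes named above or listed among the markers, the genotype effect differed between zebularine and control medium by edgeR's quasi-likelihood test of the difference, with Benjamini-Hochberg adjustment. The values below are the effect in zebularine minus that in control medium, in log2 units. Among the clock and light genes, RVE1 differed by −2.69, PRR3 by 2.94, UNE10 by −2.17 and GLK2 by −1.32. The flavonoid gene F3H differed by −1.35 and the H4 gene AT3G53730 by −1.18, and both were higher in the mutant in control medium and lower in zebularine. The transposon gene AT3G28160 differed by −1.67, and it rose in the mutant in control medium.

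SUS1 differed by 1.45 and RCI2A by 2.57, rising in the mutant in both media and by more in zebularine. The root hair marker COBL9 differed by 5.77 and the trichome regulator GL1 by −1.98, neither of them called in control medium. COBL9 rested on few reads. Wild type gave 6 and 10 reads without the drug and 4 and 1 with it, the mutant 4 and 2 without and 38 and 61 with it. The harvest hour of the libraries is not given, and its part in these differences was not tested.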

How the results depend on the processing

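Counts of genes called moved with the processing, and no named result changed direction past the threshold under any alternative run. Against 449 higher and 168 lower, DESeq2 called 726 and 262, and edgeR without the low-count filter called 965 and 332. Leaving out 1 library gave 100 to 564 higher and 21 to 248 lower. With FPKM + 0.1 in place of FPKM + 1 the size rule gave 752 and 304. With the replicate number as a block 845 and 314 were called, 7 of them jasmonate and 6 salicylic acid genes. Whether the numbers pair the libraries is not stated, so the block is given as a count only. In all 9 fits compared 70 genes were called higher and 12 lower. The limma test on FPKM, planned as an alternative, was not run. The fits without a zebularine library were added after seeing the data. Of the 62 called genes that the rule for named genes took, 26 kept the call without any 1 of the 4 control libraries, and all 62 with DESeq2.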

Other observations

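Several annotation groups were looked up after their values were seen, and they are given as descriptions. Of 21 tested genes for DUF295 proteins, a family of unknown function, 4 rose and 0 fell, with a median log2 fold change of 1.30, and 4 were called without each control library in turn. Of 27 B-box and CCT-domain genes, which include regulators of light responses, 4 rose and 3 fell. BBX29 stood at 2.97 and BBX19 at 1.30, while BBX17 stood at −2.27 and BBX15 at −2.12. When each control library in turn was left out, 0, 1, 0 and 0 of these genes were called higher and 0, 1, 2 and 0 lower.

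The 2 genes annotated as APS reductases, enzymes of the reduction step of sulphate assimilation, both fell. The group was picked by words of the annotation, so any member described in other words was not looked up. APR1 went from 79.6 and 66.3 to 25.4 and 23.4 CPM, a log2 fold change of −1.58 ± 0.13 (edgeR adjusted p = 0.000828). APR3 stood at −0.73 (edgeR adjusted p = 0.0223). In both genes the mutant libraries were below the wild-type ones. APR1 was called without any 1 of the control libraries, and APR3 only without nse4a-2_ctrl replicate 2.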
